A study of Mus musculus with 8 samples.

Results

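The 10 genes described here encode subunits of INO80, a chromatin remodelling complex. These are the ATPase Ino80, the actin-related proteins Actr5 and Actr8, and Ino80b, Ino80c, Ino80d, Ino80e, Nfrkb, Tfpt and Uchl5, the last shared with the proteasome. They were taken by gene symbol from tables of 24505 genes, and all 10 were found and passed the filter on low values. Mouse embryonic stem cells were profiled by RNA sequencing, from a line with a conditional Ino80 allele, in 8 libraries of 2 per group. Naive cells grew on gelatin in N2B27 medium with the MEK inhibitor PD0325901, the GSK3 inhibitor CHIR99021 and LIF, and primed cells on fibronectin in N2B27 with FGF-2, Activin A and XAV-939. In each state 2 libraries are labelled INO80 knockout and 2 wild type. The deletion protocol in the labels exposes cells to 4-OHT at 100 nM over 2 days, with another 2 days of culture before the experiments. The labels put all 8 libraries under the same conditional line, and whether the wild-type cells also received 4-OHT, which recombinase was used and whether the line is 1 clone are not given in the sources used here. Separate cultures are not stated for the 2 libraries of a group, and the p-values therefore reflect library-to-library spread alone, possibly technical. For values as deposited that spread was read from the trend over genes of similar level, not from each gene's own libraries.

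INO80 uses ATP to slide and space nucleosomes and acts on nucleosomes that carry the histone variant H2A.Z. The Ino80 protein is both motor and scaffold. Its ATPase domain holds the RUVBL1 and RUVBL2 ring together with ACTR5, INO80C and INO80B, a neighbouring region binds ACTR8 with actin and ACTL6A, and its N-terminal region carries subunits found only in animals. In embryonic stem cells INO80 is known to occupy regulatory regions of pluripotency genes. The series title concerns bivalency, where a nucleosome region carries active and silencing histone marks at once, and the comparison asks how loss of the ATPase affects the transcriptome.

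Values are RPKM as deposited, by definition reads scaled by gene length and by library total. Here they carry a further scaling by the authors whose method is not given. Changes are differences of log2(RPKM + 1) ± SE, libraries labelled knockout minus wild type. They come from limma with Benjamini-Hochberg adjustment over the 13428 genes that reached 1 RPKM in 2 or more libraries. A change was called at an adjusted p under 0.05. The values of 1 library sum to between 341480 and 507598 RPKM. Their depth is unknown. The median change over all tested genes was -0.53 in the primed and 0.05 in the naive comparison, so primed changes are also given after quantile normalization, which gives all libraries the same distribution, or loess normalization within a state, which removes shifts that vary with the level. Both remove a shift of most genes whatever its source, also a real one, and that source was not tested. The median standard deviation within groups was 0.179 as deposited, 0.0478 after quantile and 0.0503 after loess normalization, so smaller changes can be called after them. The summed RPKM of 6 naive-state markers was 669 to 753 in the naive and 2.52 to 9.98 in the primed libraries, and that of 6 primed-state markers 25.7 to 33.5 and 233 to 275. Within the primed state the libraries labelled knockout differed in such genes, but not all in the same direction. T was at 37.4 and 33.7 RPKM against 1.94 and 2.89 in the wild type, and Fgf5 at 19.2 and 17.1 against 4.31 and 5.99. Pou3f1 was lower, at 9.28 and 7.40 against 14.1 and 19.8. Otx2 and Dnmt3a were also lower without overlap, as 76.4% of all tested genes were in the primed state, and Dnmt3b overlapped. The Otx2 change of -0.26 was not called (limma adjusted p = 0.423). In rank within a library Otx2 was higher, at the 79.8 and 81.0 percentiles against 76.1 and 76.4 in the wild type. Dnmt3a was also higher in rank, at 84.4 and 84.3 against 83.0 and 83.1, while Pou3f1 was lower, at 74.6 and 72.3 against 75.5 and 76.7. Of the pluripotency genes, Nanog was at 38.6 and 35.5 against 111 and 122, and Lin28a at 37.9 and 35.5 against 122 and 133. Pou5f1, at 667 and 649 against 560 and 604, and Sox2, at 60.7 and 50.3 against 38.9 and 47.7, were higher. The naive-state sum was 2.52 and 2.53 in the primed libraries labelled knockout against 7.05 and 9.98 in the primed wild type. Of other cell types, 6 fibroblast markers summed to 0.663 to 2.06 RPKM in naive libraries, to 17.6 and 25.7 in the primed wild type and to 7.18 and 7.23 in the primed libraries labelled knockout. Among them Lum and Postn stayed under 1 RPKM in every library. The 3 neural markers did not move together in the primed state: Nes was at 137 and 131 RPKM against 69.4 and 77.9 in the wild type, Sox1 at 1.71 and 1.65 against 8.34 and 10.9, and Pax6 at 1.00 and 0.921 against 7.53 and 10.6. The part of these markers in the results below was not tested. In bulk RNA, fewer cells of a type and less RNA per cell cannot be told apart.

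All 10 genes were expressed in every library, between 4.60 and 58.8 RPKM. In RPKM, a scale per length, the highest gene of a library stood 5.52 to 9.03 times above the lowest. Uchl5, a deubiquitinase shared with the proteasome, and Ino80e had the highest means in all 4 groups, though in the primed libraries labelled knockout Ino80e overlapped Ino80b. The lowest gene was Actr5 in all 4 naive libraries and Ino80d in all 4 primed ones. In the naive wild type the neighbours Ino80b, Ino80c, Tfpt, Nfrkb and Ino80, with means from 17.3 down to 15.8 RPKM, overlapped each other in order. In the primed wild type every neighbour from Tfpt at 21.7 down to Ino80d at 9.17 RPKM overlapped. Among all 24505 genes the 10 lay between the 65.2 and 94.3 percentiles of their libraries.

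**Figure D1:**
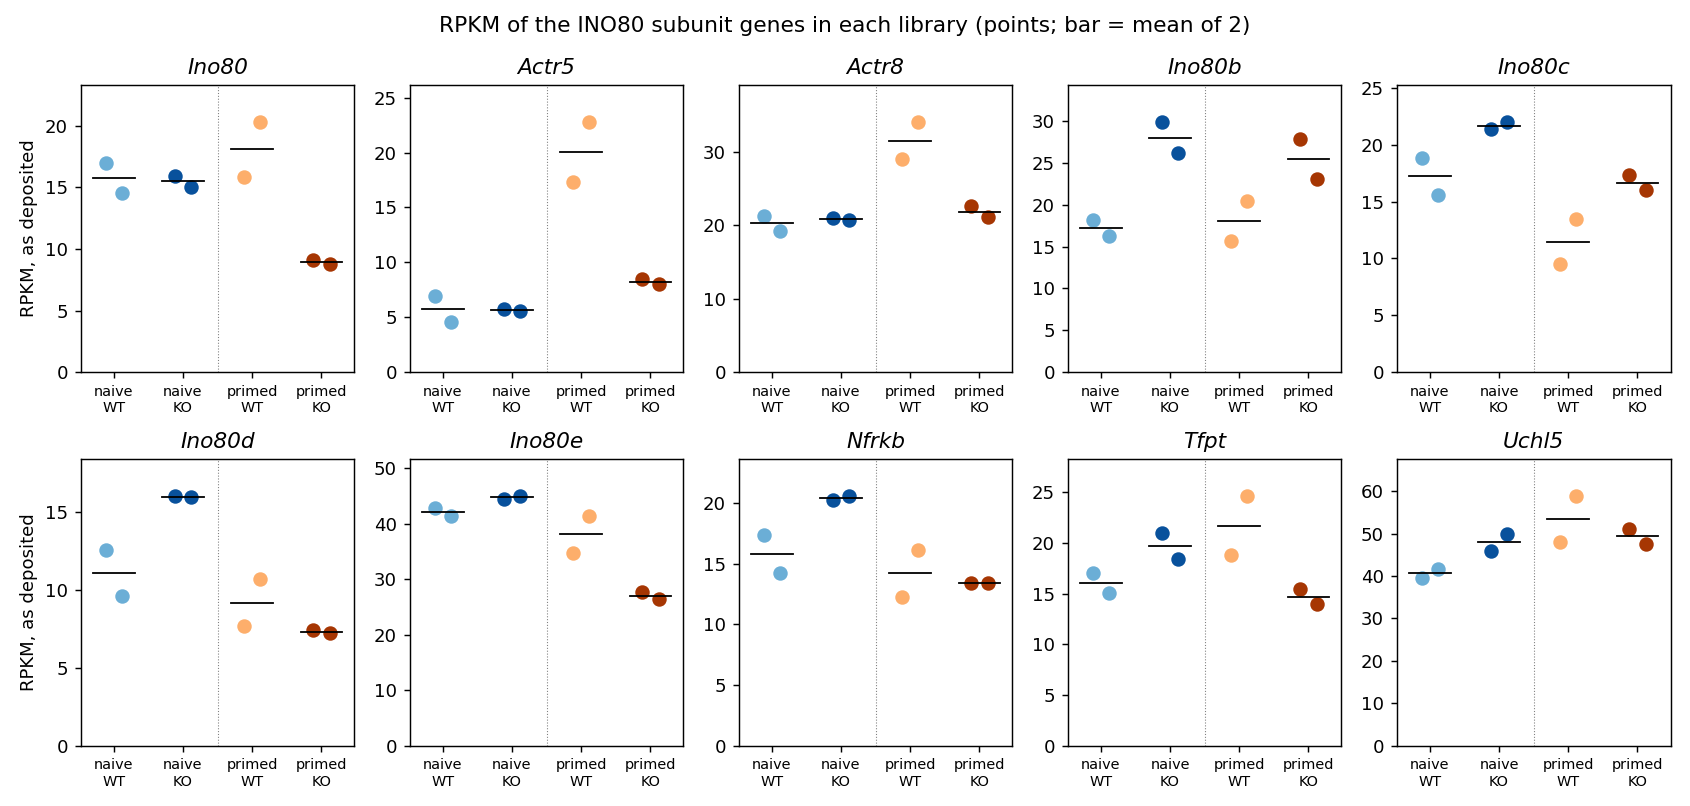
Deposited RPKM of each INO80 subunit gene (vertical axes, each from 0) in the 4 groups; points are libraries and bars the mean of 2. Ino80b stands higher in the libraries labelled knockout in both states, while Ino80 and Actr5 are lower in the primed ones.

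Ino80, the ATPase that the study deleted, was called lower in the primed libraries labelled knockout and not in the naive ones as deposited. Naive libraries labelled knockout held 15.9 and 15.1 RPKM, and naive wild-type libraries 17.0 and 14.5. These ranges overlap, and the difference was -0.02 ± 0.18 (limma adjusted p = 0.975), or -0.099 after loess normalization (adjusted p = 0.0461). The primed values were 9.12 and 8.74 against 15.9 and 20.3 RPKM, a ratio of means of 0.494. The primed change was -0.93 ± 0.18 (adjusted p = 2.0e-06) as deposited and -0.26 ± 0.035 after quantile normalization (adjusted p = 2.3e-04). Genes within 0.5 of the mean log2 level of Ino80 changed by a median of -0.60. The rank of Ino80 within a library does not depend on a common shift. It was at the 78.9 and 79.2 percentiles in the naive wild type and at 78.6 and 78.0 in the naive libraries labelled knockout, and at 77.3 and 77.1 against 74.3 and 74.5 in the primed state. The value of a gene sums all its exons, deleted or not, so the libraries are called labelled knockout throughout.

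The promoter window of Ino80 is shown because Ino80 and Ino80b, described next, moved apart in the primed libraries. It is RefSeq's, on GRCm38.p6 at chr2:119477638-119477937, minus strand, from 250 bases before to 50 after the annotated start, and 70.0% of it is G or C.
Ino80: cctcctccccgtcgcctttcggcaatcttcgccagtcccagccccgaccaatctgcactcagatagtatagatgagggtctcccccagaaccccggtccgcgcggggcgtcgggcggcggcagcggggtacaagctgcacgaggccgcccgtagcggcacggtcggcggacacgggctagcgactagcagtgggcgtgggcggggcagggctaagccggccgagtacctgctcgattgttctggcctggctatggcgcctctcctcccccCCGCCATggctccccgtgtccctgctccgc
The capitals mark the reverse complement of ATGGCGG, a core of sites bound by YY1, a DNA-binding factor that is itself an INO80 subunit. The match begins at base 21 after the start, and 4.05% of 32851 windows of 300 bases hold these letters on either strand. Windows of 6 of the 10 genes were matched by symbol (Ino80, Ino80b, Ino80e, Nfrkb, Tfpt and Uchl5). Those of the other 5 genes do not hold ATGGCGG.

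Ino80b, the mammalian counterpart of yeast Ies2, which stimulates the ATPase, was called higher in the libraries labelled knockout in both states. In the naive state it stood at 29.9 and 26.2 RPKM against 18.2 and 16.3 in the wild type. Neither library labelled knockout overlapped the wild type. The change was 0.67 ± 0.15 (limma adjusted p = 2.8e-04), and 0.61 after quantile and 0.60 after loess normalization. Primed libraries labelled knockout held 27.9 and 23.1 RPKM against 15.6 and 20.5, again with no overlap. That change was 0.48 ± 0.15 (adjusted p = 0.0036) as deposited, against the fall of the median gene, and 1.08 ± 0.068 after quantile normalization (adjusted p = 2.5e-06). The rank of Ino80b moved from the 80.04 and 80.8 percentiles to 87.4 and 85.8 in the naive state, and from 77.1 and 77.3 to 88.8 and 87.4 in the primed state. Without naive knockout replicate 1 the naive change was 0.58 and no longer called (adjusted p = 0.162), and without primed knockout replicate 1 the primed change was 0.35 and no longer called (adjusted p = 0.177).

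The window of Ino80b lies on GRCm38.p6 at chr6:83125070-83125369, minus strand, with 51.3% G or C.
Ino80b: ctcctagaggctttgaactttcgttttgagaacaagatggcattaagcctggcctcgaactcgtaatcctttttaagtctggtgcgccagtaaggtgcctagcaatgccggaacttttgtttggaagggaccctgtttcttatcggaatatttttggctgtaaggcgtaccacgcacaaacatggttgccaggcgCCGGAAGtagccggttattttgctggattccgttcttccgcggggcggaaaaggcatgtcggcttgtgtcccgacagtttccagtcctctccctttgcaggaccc
The capitals mark CCGGAAG, the core of sites of ETS factors, beginning 55 bases before the start. These letters occur on either strand in 8.86% of the 32851 windows, and among the 6 genes also in that of Tfpt. GCATGCG, a stretch of NRF1 sites, was in no window of the 6 genes and in 3.58% of all windows. No 2 of these matches overlap.

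Ino80c, the counterpart of yeast Ies6, which binds the nucleosome-gripping subunit Arp5, was called higher in the primed libraries labelled knockout. It stood at 17.4 and 16.0 RPKM against 9.49 and 13.5 in the primed wild type, and the groups did not overlap. The change was 0.52 ± 0.17 (limma adjusted p = 0.0054) as deposited and 1.19 ± 0.038 after quantile normalization, the highest of the 10 genes. Its rank moved from the 69.9 and 70.6 percentiles to 82.9 and 82.8. The call as deposited ended without primed knockout replicate 1 (change 0.46, adjusted p = 0.108), without primed wild-type replicate 1 (change 0.29, adjusted p = 0.0636), and in the primed state fitted alone (adjusted p = 0.0708). In the naive state Ino80c stood at 21.4 and 22.0 against 18.8 and 15.6 RPKM, a difference of 0.32 ± 0.17 that was not called (adjusted p = 0.253) but was called after quantile normalization at 0.27 (adjusted p = 5.5e-04).

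Actr5, the mammalian Arp5, was called lower in the primed libraries labelled knockout, with the most negative change of the 10 genes there. It stood at 8.45 and 7.98 RPKM against 17.3 and 22.7 in the primed wild type, with no overlap. The change was -1.18 ± 0.23 (limma adjusted p = 1.4e-06), and -0.52 ± 0.040 after quantile normalization (adjusted p = 6.8e-06). Genes within 0.5 of its mean log2 level changed by a median of -0.67. Its rank was at the 78.6 and 79.0 percentiles in the primed wild type and at 73.3 and 73.2 in those labelled knockout. In the naive state Actr5 stood at 5.70 and 5.56 RPKM against 6.90 and 4.60, with overlap and a difference of -0.0040 ± 0.23 (adjusted p = 0.996). All 4 naive libraries placed it between the 65.2 and 66.2 percentiles. The naive and primed values were taken as scaled apart, from their patterns of tied values, so levels were not tested between the states.

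Actr8, the actin-related subunit that binds nucleosomes and DNA between them, followed the median gene. In the primed state it stood at 22.6 and 21.1 RPKM against 28.9 and 34.0, called lower as deposited (-0.50 ± 0.15, limma adjusted p = 0.0015) but at 0.03 and not called after quantile normalization (adjusted p = 0.446), and the deposited call ended without primed knockout replicate 2 (adjusted p = 0.0626). The naive values of 21.0 and 20.7 against 21.3 and 19.2 RPKM overlapped. The ratio of Actr5 to Actr8 RPKM was 0.597 and 0.669 in the primed wild type and 0.374 and 0.379 in the primed libraries labelled knockout. In the 4 naive libraries it lay between 0.239 and 0.324. Genes within 0.5 of the mean log2 levels of Actr5 and Actr8 changed by medians of -0.67 and -0.51 in the primed comparison.

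**Figure D2:**
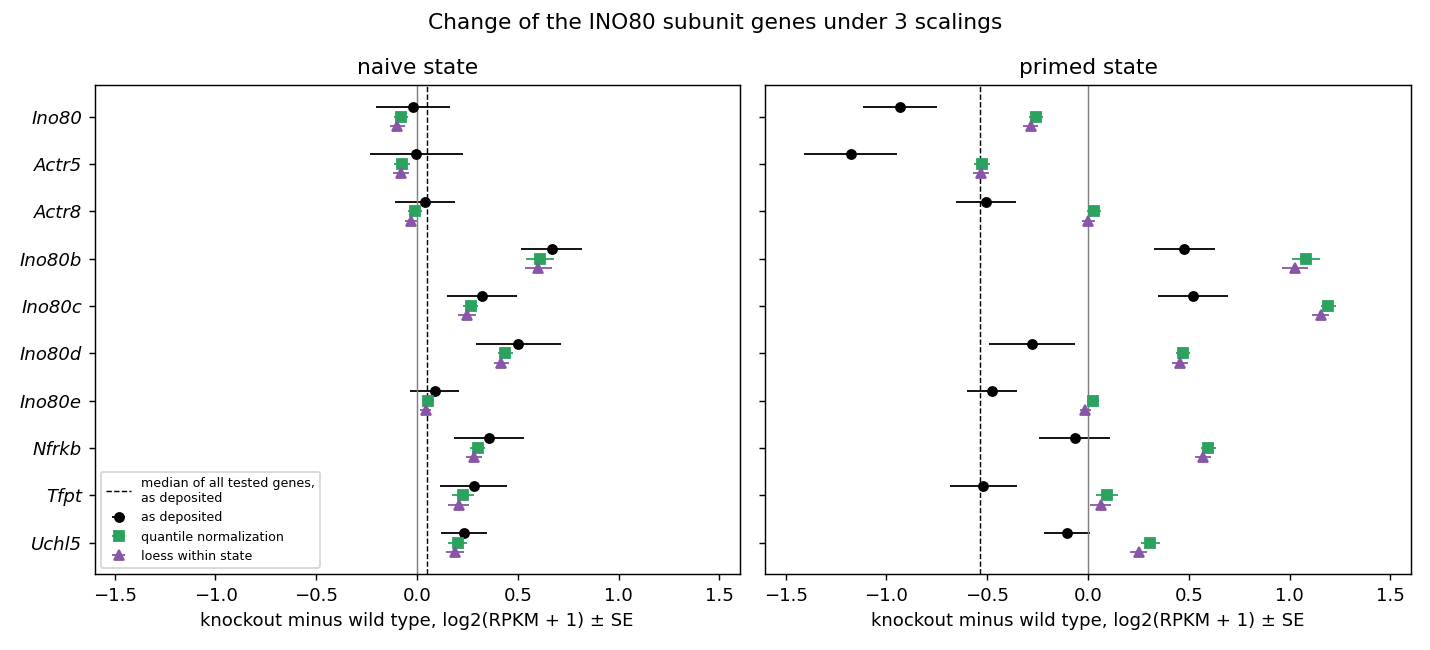
Change of each gene (horizontal axis, difference of log2(RPKM + 1) ± SE, knockout-labelled minus wild type) in the naive and primed states as deposited and after quantile and loess normalization; the dashed line is the deposited median of all tested genes. In the primed panel Ino80 and Actr5 lie below 0 and Ino80b and Ino80c above 0 under all 3 scalings, while the other 6 are negative as deposited and positive after quantile normalization.

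Nfrkb, which in human cells holds Uchl5 in INO80 in an inactive form, and Ino80d are both subunits of the animal-specific part of the complex. Nfrkb stood at 20.3 and 20.6 RPKM against 17.3 and 14.2 in the naive state. Ino80d stood at 16.0 and 15.9 against 12.5 and 9.61 there. Neither overlapped. Their naive differences, 0.36 ± 0.18 and 0.50 ± 0.21, were not called as deposited (limma adjusted p = 0.194 and 0.109). After quantile normalization they were 0.30 ± 0.037 and 0.44 ± 0.036 and were called (adjusted p = 2.7e-04 and 3.3e-05), with smaller errors and not larger changes. Primed levels of Nfrkb were 13.4 and 13.4 RPKM against 12.3 and 16.1, and those of Ino80d 7.39 and 7.21 against 7.67 and 10.7. As deposited these differences of -0.07 ± 0.18 and -0.28 ± 0.21 were not called (adjusted p = 0.765 and 0.249), the Ino80d groups not overlapping and those of Nfrkb overlapping, and after quantile normalization they had the other sign, 0.60 and 0.47, and were called (adjusted p = 2.4e-06 and 7.9e-06). In rank, Nfrkb moved from the 73.5 and 73.4 percentiles to 79.3 and 80.2, and Ino80d from 67.1 and 67.3 to 71.5 and 71.9. Without primed wild-type replicate 1 the primed Ino80d change was -0.49 as deposited, where the median over all tested genes was -0.70.

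Uchl5 stood at 46.0 and 49.95 RPKM against 39.7 and 41.6 in the naive state, with no overlap and a difference of 0.23 ± 0.11 that was not called (limma adjusted p = 0.183), but was after quantile normalization at 0.20 (adjusted p = 0.0068). The primed values of 51.1 and 47.6 against 47.9 and 58.8 RPKM overlapped, and the difference turned from -0.11 ± 0.11 (adjusted p = 0.422) to 0.31 after quantile normalization (adjusted p = 4.5e-04). Without primed wild-type replicate 1 the primed Uchl5 change was -0.25 as deposited, where the median over all tested genes was -0.70. Adrm1, the proteasome receptor that recruits and activates Uchl5, stood at 75.6 and 77.0 against 60.3 and 65.9 RPKM in the naive state and at 71.1 and 62.3 against 52.5 and 62.8 in the primed state. Neither of its differences, 0.27 ± 0.10 and 0.21 ± 0.10, was called as deposited (adjusted p = 0.0645 and 0.0646), and both were after quantile normalization, at 0.26 and 0.59.

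Ino80e and Tfpt, 2 subunits of the animal-specific module, followed the median gene in the primed state. Tfpt is also a fusion partner of TCF3 in human leukaemia. Ino80e stood at 27.7 and 26.3 RPKM against 34.8 and 41.3, which gives -0.48 ± 0.12 (limma adjusted p = 3.1e-04) that was 0.025 and not called after quantile normalization (adjusted p = 0.451). Tfpt stood at 15.5 and 14.0 against 18.8 and 24.6 RPKM, which gives -0.52 ± 0.17 (adjusted p = 0.0037) that was 0.0955 and not called after quantile normalization (adjusted p = 0.148), and the deposited Tfpt call ended without primed knockout replicate 2 (adjusted p = 0.105). The naive values were 44.5 and 44.9 against 42.8 and 41.3 for Ino80e and 21.0 and 18.5 against 17.0 and 15.1 for Tfpt. Neither naive difference, 0.09 ± 0.12 and 0.28 ± 0.17, was called as deposited (adjusted p = 0.765 and 0.318), and that of Tfpt was called after quantile normalization at 0.23 (adjusted p = 0.0074).

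Some of these genes lie close to others, and how reads of overlapping or adjoining genes were assigned, and whether strand was used, are points on which the sources are silent. In the GRCm38 annotation Ino80e overlaps Hirip3, which encodes a histone-binding protein, Tfpt lies head to head with the splicing factor Prpf31, and Wbp1 lies just downstream of Ino80b. Hirip3 was called lower in both states, at 35.4 and 35.5 against 48.1 and 49.2 RPKM (-0.45 ± 0.11, limma adjusted p = 0.0016) and at 35.1 and 34.4 against 75.8 and 83.4 (-1.17 ± 0.11, adjusted p = 3.3e-23). Its naive call ended without naive knockout replicate 1 or 2 (adjusted p = 0.114 and 0.106). Wbp1 was called lower in the primed state, at 14.6 and 13.9 against 27.2 and 35.0 RPKM (-1.06 ± 0.16, adjusted p = 1.9e-10), while Ino80b was higher there, and the naive Wbp1 difference of -0.05 was not called (adjusted p = 0.926). After quantile normalization the primed changes of Hirip3 and Wbp1 were -0.76 and -0.50, both called (adjusted p = 3.5e-07 and 1.2e-05). The ratio of Ino80b to Wbp1 was 0.575 and 0.586 in the primed wild type and 1.904 and 1.66 in the libraries labelled knockout, and 0.865 and 0.970 against 1.62 and 1.46 in the naive state. Prpf31 was called lower in the primed state as deposited, at 33.9 and 33.5 against 43.5 and 51.7 RPKM (-0.48 ± 0.12, adjusted p = 1.8e-04), but not after quantile normalization (-0.04, adjusted p = 0.334). In the naive state it overlapped, at 39.8 and 40.4 against 40.5 and 39.7, where Tfpt did not. Ndufa3, a gene of respiratory complex I on the other side of Tfpt, was called lower in both states, at 56.1 and 51.4 against 88.3 and 88.9 RPKM (-0.71 ± 0.10, adjusted p = 7.3e-10) and at 45.0 and 42.9 against 69.0 and 86.2 (-0.80 ± 0.10, adjusted p = 2.0e-13).

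Counted over the 10 genes in the naive state, 1 was called higher and 0 lower (limma), where 6.08% of all tested genes were called higher and 5.85% lower. At an unadjusted p under 0.05, 4 were higher and 0 lower, where 3110 of the 13428 tested genes passed in either direction. The median difference of the 10 was 0.26 against 0.05 over all tested genes. The primed wild-type libraries share the estimate of the spread. Without either of them the naive differences of Ino80c, Ino80d, Nfrkb and Uchl5 stayed at 0.32, 0.50, 0.36 and 0.23. The median over all tested genes stayed at 0.05. Whether these genes were called depended on that estimate. After quantile normalization 6 were called higher and 0 lower, against 31.9% and 27.5% of all genes, with a median of 0.22. The counts were the same 6 and 0 at an unadjusted p under 0.05, which 8499 of the 13428 genes passed in either direction. In 7 of the 10 both libraries labelled knockout lay above both wild-type ones, in 0 below, where 31.2% and 21.0% of tested genes did so.

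In the primed state 2 of the 10 genes were called higher and 5 lower as deposited, where 4.16% and 59.3% of all genes were, and after quantile normalization the split was 5 higher and 2 lower, where 39.4% and 34.6% were. The median of the 10 was -0.38 as deposited, against -0.53 over all tested genes, and 0.20 after quantile normalization, against 0.03. Both libraries labelled knockout lay above the wild type for 2 genes, Ino80b and Ino80c, and below it for 6, where 6.77% and 76.4% of tested genes did so. The share below is thus near that of all genes.

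The effect of the knockout label differed between states for 6 of the 10 genes as deposited, all lower in the primed state and 0 higher (limma, primed minus naive), where 2.16% of all genes were called higher and 47.4% lower. At an unadjusted p under 0.05 the counts were 0 and 7, where 7672 of the 13428 tested genes passed in either direction. After quantile normalization 3 were called higher and 2 lower, where 33.9% and 30.5% were. The 2 lower were Actr5, at -1.17 ± 0.32 as deposited (adjusted p = 0.0014) and -0.45 after quantile normalization (adjusted p = 2.2e-04), and Ino80, at -0.91 ± 0.26 (adjusted p = 0.0020) and -0.18 (adjusted p = 0.0146), of which the Ino80 call ended with median centring (-0.16, adjusted p = 0.214). The 3 higher were Ino80c, Ino80b and Nfrkb, at 0.93, 0.47 and 0.30 (adjusted p = 4.8e-06, 0.0032 and 0.0015), none of which was called as deposited (adjusted p = 0.490, 0.456 and 0.140). Leaving out single libraries ended the deposited calls of Actr8, Ino80d, Ino80e and Tfpt. The highest adjusted p were 0.150 for Actr8 and 0.0558 for Ino80e, 0.137 for Ino80d and 0.0772 for Tfpt, and without naive knockout replicate 1 or primed knockout replicate 2 none of the 4 calls held. Without primed wild-type replicate 1 the differences of Ino80b, Nfrkb and Uchl5 were -0.37, -0.61 and -0.48 as deposited. The median over all tested genes was then -0.75, more negative than each of them.

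The balance among subunit RNAs was compared within libraries, where a shift common to all genes cancels. A shift that varies with the level does not fully cancel. In the primed comparison, genes within 0.5 of a member's mean log2 level changed by medians from -0.67 for Actr5 to -0.37 for Uchl5. The medians were -0.60 near Ino80, -0.52 near Ino80b and -0.57 near Ino80c. Ino80 stood at 0.932 and 0.892 times the RPKM of Ino80b in the naive wild type and at 1.02 and 0.990 times in the primed wild type. In the libraries labelled knockout the ratio was 0.534 and 0.574 in the naive state and 0.327 and 0.379 in the primed state. The 4 wild-type and 4 knockout-labelled libraries did not overlap. Ino80c stood at 0.549 and 0.592 times the RPKM of Actr5, its partner in the complex, in the primed wild type and at 2.05 and 2.00 times in the primed libraries labelled knockout. The naive ratio was 2.73 and 3.40 in the wild type and 3.75 and 3.95 in those labelled knockout, again without overlap. Relative to the median of the other 9 subunit genes, Ino80 lay at -0.10 and -0.10 on the log2(RPKM + 1) scale in the naive wild type and at -0.38 and -0.43 in the naive libraries labelled knockout, a difference of -0.31. The primed values were -0.11 and -0.16 against -0.86 and -0.80, a difference of -0.70. Members that rose are among those 9, so this measure falls also where Ino80 itself stays level. With 2 libraries against 2 no permutation test could pass, so none was made.

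**Figure D3:**
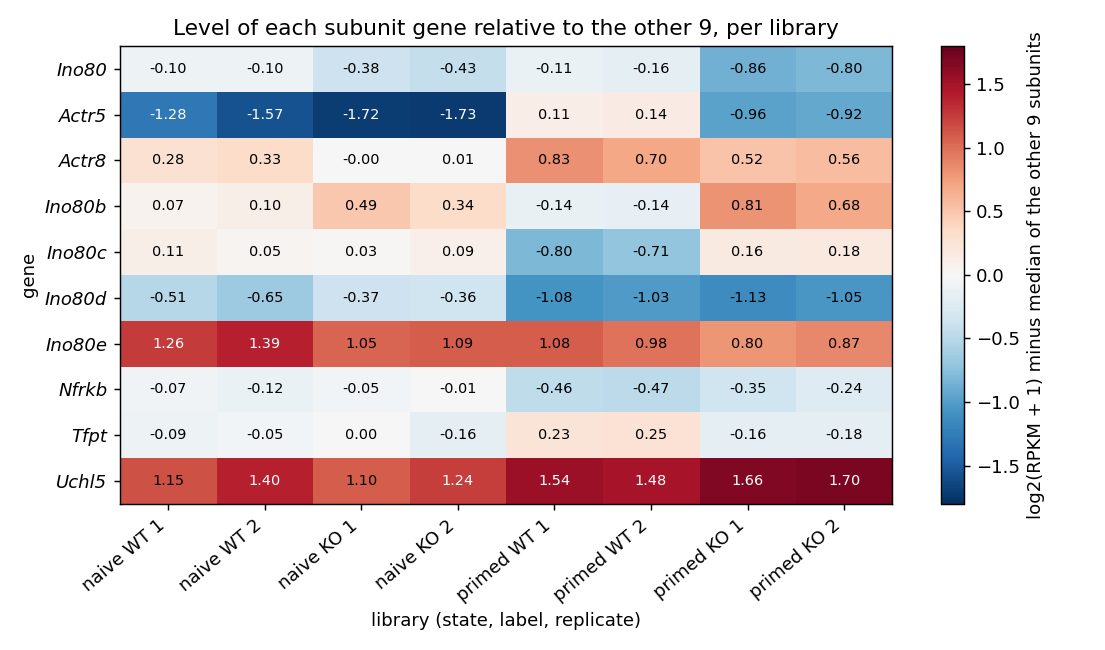
Level of each gene minus the median of the other 9 in the same library, log2(RPKM + 1) (colour and printed value), for the 8 libraries in columns. Ino80 is lower and Ino80b higher in the libraries labelled knockout than in the wild type of the same state, and in the primed state Ino80c lies below Actr5 in the wild type and above it in those labelled knockout.

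**Figure D4:**
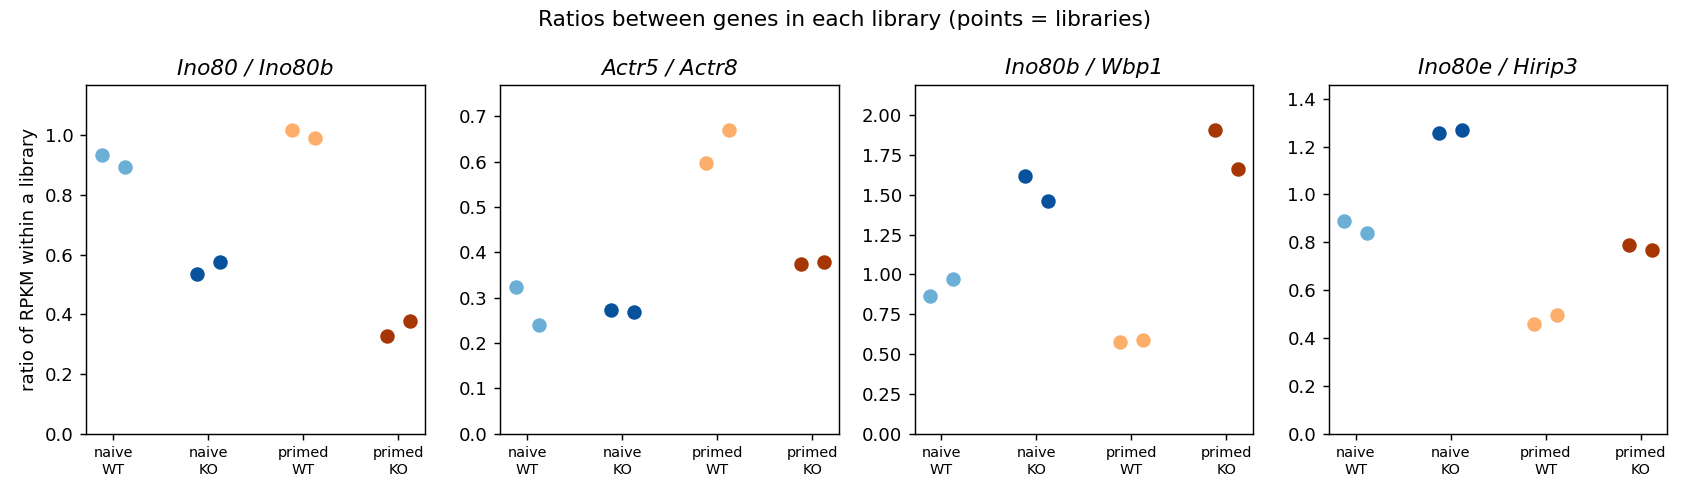
Ratios of RPKM between pairs of genes within a library (vertical axes from 0), points being the 2 libraries of each group. Ino80 to Ino80b is lower in all 4 libraries labelled knockout, and Ino80b to Wbp1 is higher in them.

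Several INO80 subunits also work in other complexes. In the naive state, of Mcrs1, Ruvbl1, Ruvbl2, Yy1, Actl6a and Actb, 0 of 6 were called in either direction as deposited (limma). At an unadjusted p under 0.05 also 0 passed, and their median was -0.05. Of all tested genes 6.08% were called higher and 5.85% lower as deposited, and 3110 of the 13428 passed unadjusted in either direction. After quantile normalization 2 of the 6 were called higher and 3 lower, where 31.9% and 27.5% of all tested genes were. The naive values, labelled knockout against wild type, were 42.4 and 41.9 against 38.4 and 36.9 RPKM for Mcrs1, a forkhead-associated domain protein, and 42.6 and 43.8 against 47.4 and 50.5 for Yy1. The AAA+ ATPases Ruvbl1 and Ruvbl2 stood at 42.1 and 43.2 against 40.2 and 41.6 and at 116 and 113 against 116 and 129. The actin-related Actl6a stood at 112 and 110 against 115 and 128 RPKM, and Actb, the gene of beta-actin, at 1166 and 1113 against 1105 and 1169.

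In the primed state 4 of these 6 were called lower and 0 higher as deposited (0 also at an unadjusted p under 0.05), with a median of -0.31, and after quantile normalization 3 higher and 1 lower, their median being 0.11. Of all tested genes 59.3% were called lower as deposited, and 39.4% higher and 34.6% lower after quantile normalization. Mcrs1 stood at 33.1 and 30.5 against 40.001 and 46.1 RPKM (-0.42 ± 0.12), and Ruvbl2 at 163 and 159 against 196 and 216 (-0.35 ± 0.085). Actb stood at 920 and 885 against 1127 and 1202 (-0.37 ± 0.070), and Yy1 at 40.5 and 36.8 against 43.0 and 51.3 (-0.28 ± 0.12). Their adjusted p were 0.0013, 1.2e-04, 7.3e-07 and 0.0286, and the calls did not hold without primed knockout replicate 2 for Mcrs1 (adjusted p = 0.0636) or without primed wild-type replicate 2 for Actb (0.107). The Yy1 call ended without any 1 of 5 libraries (all 4 labelled knockout and primed wild-type replicate 2), the highest adjusted p being 0.282. After quantile normalization Ruvbl2 was still called lower (-0.15, adjusted p = 0.0017), Mcrs1 and Actb were at 0.04 and 0.012 and not called (0.246 and 0.671), and Yy1 was called higher (0.17, 0.0011). Ruvbl1 at 51.1 and 46.5 against 47.1 and 55.1 and Actl6a at 91.9 and 86.1 against 81.0 and 86.5 RPKM were not called as deposited, and both were called higher after quantile normalization, at 0.36 and 0.40.

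SRCAP and TIP60-p400, remodellers that deposit H2A.Z and share subunits with INO80, were set beside it. Srcap, the ATPase of the former, stood at 31.9 and 31.9 against 29.4 and 27.1 RPKM in the naive state and at 24.0 and 23.0 against 23.7 and 28.7 in the primed state, and neither difference was called as deposited (limma adjusted p = 0.521 and 0.361). Of the 6 SRCAP genes 0 were called in the naive state as deposited, where 6.08% of all tested genes were called higher and 5.85% lower. At an unadjusted p under 0.05, 1 was lower, Znhit1, where 3110 of the 13428 tested genes passed in either direction. After quantile normalization 2 of the 6 were called higher and 2 lower, where 31.9% and 27.5% of all tested genes were. In the primed state 5 of the 6 SRCAP genes were called lower and 0 higher as deposited, with a median of -0.50. At an unadjusted p under 0.05 also 0 were higher. After quantile normalization 2 were called higher and 1 lower there. Of all tested genes 59.3% were called lower and 4.16% higher as deposited, and 34.6% and 39.4% after quantile normalization. The called changes as deposited were -0.75 ± 0.18 for the actin-related Actr6, -0.54 ± 0.20 for Znhit1, -0.52 ± 0.14 for Dmap1, -0.48 ± 0.12 for the acetyl-lysine reader Yeats4 and -0.31 ± 0.13 for the H2A.Z chaperone Vps72. After quantile normalization Actr6 was at -0.096 and still called lower (adjusted p = 0.0381), Dmap1, Yeats4 and Znhit1 were at -0.011, -0.05 and 0.12 and not called (0.788, 0.290 and 0.127), and Vps72 was called higher (0.15, 0.0087). The Znhit1 call ended without any 1 of 3 primed libraries (knockout replicates 1 and 2 and wild-type replicate 2, highest adjusted p 0.160). The Vps72 call ended without any 1 of those 3 or of the 2 naive libraries labelled knockout (highest adjusted p 0.229), and that of Dmap1 without primed knockout replicate 2 (0.0503).

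Of 12 TIP60-p400 genes 1 was called higher and 2 lower in the naive state as deposited, and 6 and 3 after quantile normalization. Of all tested genes 6.08% and 5.85% were so called as deposited, and 31.9% and 27.5% after quantile normalization. Epc1, a scaffold of the acetyltransferase module, stood at 18.1 and 17.6 against 12.6 and 10.7 RPKM (0.58 ± 0.19, limma adjusted p = 0.0243), and the histone-mark reader Morf4l1 at 76.8 and 81.2 against 101 and 112 (-0.43 ± 0.097, adjusted p = 2.9e-04). Meaf6 stood at 12.8 and 12.1 against 19.4 and 16.3 (-0.49 ± 0.17, adjusted p = 0.0436). Without naive knockout replicate 1 none of these 3 calls held (adjusted p = 0.415, 0.105 and 0.346). The Epc1 call also ended without naive knockout replicate 2, naive wild-type replicate 2 or either primed library labelled knockout (highest adjusted p 0.348), and that of Meaf6 without naive knockout replicate 2, naive wild-type replicate 1 or either primed library labelled knockout (0.502). Of these 12 genes 7 were called lower and 0 higher in the primed state as deposited, with a median of -0.33. At an unadjusted p under 0.05 also 0 were higher. Of all tested genes 59.3% were called lower and 4.16% higher as deposited. After quantile normalization 7 of the 12 were called higher and 3 lower, where 39.4% and 34.6% of all tested genes were. Among the 7 called lower as deposited, the bromodomain protein gene Brd8 stood at 28.4 and 27.0 against 49.4 and 56.9 RPKM (-0.91 ± 0.12). Meaf6 stood at 12.6 and 12.8 against 22.6 and 26.4 (-0.89 ± 0.17). Morf4l1 at -0.76 ± 0.097, Mrgbp at -0.68 ± 0.17, the acetyltransferase Kat5 at -0.60 ± 0.15 and the ATPase Ep400 at -0.36 ± 0.13 were also called lower as deposited. After quantile normalization Brd8, Meaf6 and Morf4l1 were still called lower (-0.45, -0.28 and -0.43), Mrgbp and Kat5 were at -0.12 and -0.073 and not called (adjusted p = 0.225 and 0.0767), and Ep400 was called higher (0.17, adjusted p = 5.1e-04). As deposited Ep400 stood at 25.3 and 23.6 against 28.7 and 34.8 RPKM, a call that did not hold without primed knockout replicate 1 or 2 or primed wild-type replicate 2 (adjusted p = 0.0548, 0.159 and 0.0742). Against Ino80, the RPKM of Srcap was 1.49 and 1.42 times as high in the primed wild type and 2.64 and 2.63 times in the libraries labelled knockout, and 1.73 and 1.86 against 2.00 and 2.12 times in the naive state.

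**Figure D5:**
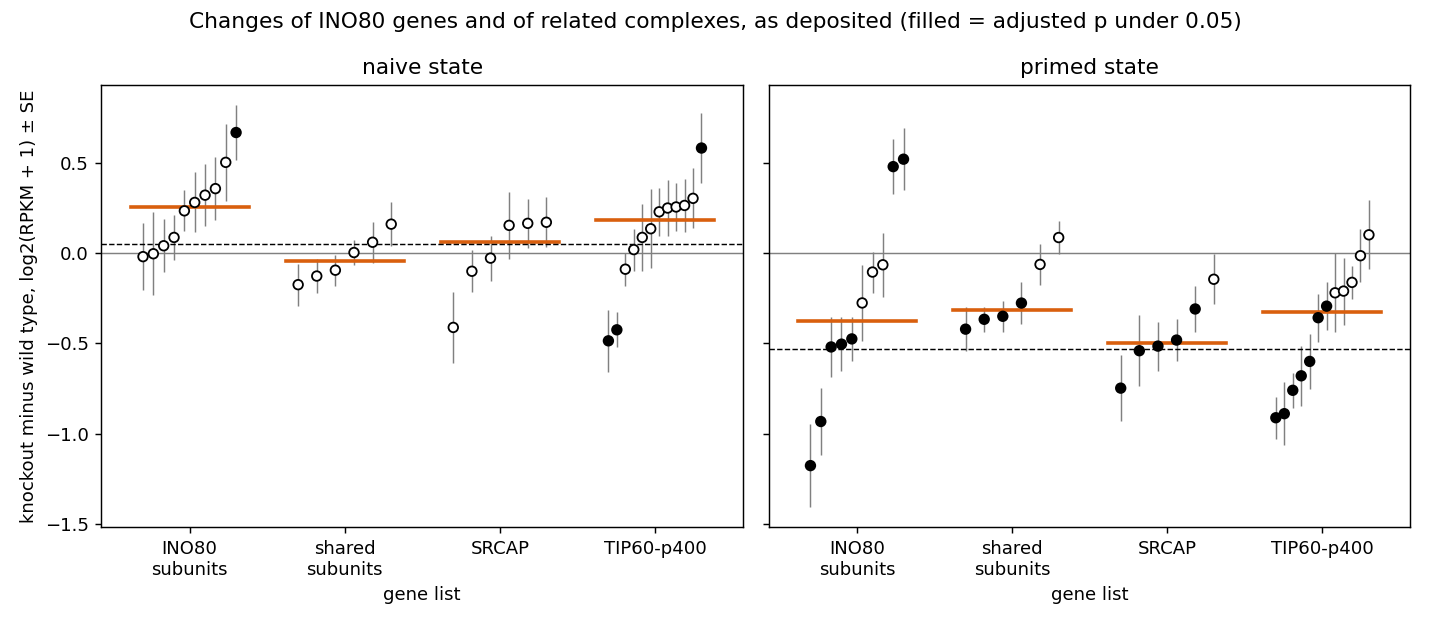
Changes as deposited (vertical axis, difference of log2(RPKM + 1) ± SE) of each gene in 4 lists, sorted within a list; filled points passed an adjusted p of 0.05, orange bars are list medians and the dashed line the median of all tested genes. In the primed panel the list medians lie between -0.50 and -0.31, and the 2 filled points above 0 are Ino80b and Ino80c.

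The genes whose values most resembled those of Ino80 were Acd, which encodes the telomere protein TPP1, Commd10, and Hs6st1, a heparan sulphate sulphotransferase. Their Pearson correlation with Ino80 over the 8 libraries, after centring each library on its median, was 0.997, 0.997 and 0.993 among 9176 genes with a mean of at least 5 RPKM. The points are 4 groups of 2 libraries, so the value describes a shared drop in the primed libraries labelled knockout, where Acd stood at 17.0 and 15.9 RPKM against 32.1 and 40.2 in the wild type.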

How the data were processed

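RNA was sequenced from 8 libraries, 2 per group, of the conditional Ino80 line. Per the labels' protocols, cell lysates received ERCC spike-ins and total RNA was depleted of ribosomal RNA. The submitters' processing notes name the mm9 build and cutadapt 1.9, STAR 2.5.2b, featureCounts 1.5.1 and affy, with no role or order. The deposited RPKM values, 1 file of 24505 rows per library, carry a further scaling by the authors whose method is not given here. No value is 0, 0 spike-in rows are present, and groups of genes with 1 shared value, 968 in naive and 1098 in primed libraries, are shared in all 4 libraries of their state but only 501 and 410 of them in the other state. The states were therefore taken as scaled apart, and levels were not tested between them.

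Deposited values were taken as log2(RPKM + 1), which understates changes of low genes. A model of 4 group means over the 8 libraries was fitted with limma 3.58.1 in R 4.3.3 with a variance trend, and tested on simulated data. The prior degrees of freedom were infinite (4 residual), so variances came from the trend alone, and after quantile normalization they were 3.71. Plots came from matplotlib 3.10.9 (Python 3.11.15). Depth is unknown, so no counting interval is given. Replicate numbers were not taken as pairs in the main fit. Deviations from the group means of same-numbered libraries correlated between -0.312 and 0.314 over the pairs of groups, with 0.314 between the naive groups. These values cannot show whether libraries were paired.

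The members and lists were chosen with earlier results of these data known. All 10 members and the 6 shared subunits are named, and of SRCAP and TIP60-p400 the ATPase and up to 6 called genes by size of change, with Adrm1, neighbours of members, and the 3 properly named genes most like Ino80. Alternatives were a pseudocount of 0.1, no filter, a filter of 5 RPKM, median centring, quantile and loess normalization, each state alone, no variance trend, weights per library, a replicate block, and omission of single libraries. Leaving out libraries for the relative level of Ino80 was added after the data were seen. Promoter windows are RefSeq's on GRCm38.p6, a build other than the authors', and were matched by symbol.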

Additional observations from a re-analysis of the deposited data

Results flagged for a closer look

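The effect of the knockout label differed between the states by limma's test of the difference for 6 subunit genes. Primed minus naive, the difference was -0.91 for Ino80, -1.17 for Actr5, -0.55 for Actr8, -0.78 for Ino80d, -0.56 for Ino80e and -0.80 for Tfpt, where the median over all tested genes was -0.59. After quantile normalization only Ino80 and Actr5 of these 6 passed, as given above. Both libraries labelled knockout lay above the wild type in the naive state and below it in the primed state for Ino80d, Ino80e and Tfpt among them, and also for Mcrs1 (-0.58), Ep400 (-0.59), Dmap1 (-0.68), Mrgbp (-0.98) and Kat5 (-0.85), whose differences passed the same test. Those of Mcrs1, Dmap1 and Ep400 did not pass without primed knockout replicate 2 (limma adjusted p = 0.0540, 0.0517 and 0.0732), nor that of Ep400 without naive knockout replicate 1 or 2 (0.0643 and 0.0664). With quantile normalization the differences of these 5 were -0.086, -0.018, -0.13, -0.36 and -0.26, in that order. Those of Dmap1, Mrgbp and Kat5 then passed (limma adjusted p = 0.0441, 0.0232 and 0.0014), and those of Mcrs1 and Ep400 did not (0.100 and 0.689). With median centring none of these 5 passed (lowest limma adjusted p 0.211, for Mrgbp). Mbtd1 of TIP60-p400 also lay above the wild type in the naive state and below it in the primed state. Its difference was -0.55 as deposited (limma adjusted p = 0.0098), near the median of -0.59 over all tested genes. Of all tested genes 31.2% lay above without overlap in the naive state and 76.4% below in the primed state. The share of all genes that did both was not counted.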

How the results depend on the processing

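Single libraries and the scaling decided most counts. As deposited 1602 genes were called in the naive, 8517 in the primed and 6658 in the difference comparison, and leaving out 1 library gave 552 to 2946, 5539 to 9960 and 3457 to 9269. Of the 10 subunit genes, 0 to 5, 5 to 8 and 2 to 9 were then called. The 0, without naive knockout replicate 1, came from limma with 1 gene at an unadjusted p under 0.05. Median centring, quantile normalization and loess normalization gave 4456, 7967 and 7719 genes in the naive comparison, 4, 6 and 7 of them subunit genes. Each state alone gave 2526 genes and 5 subunit genes, and no variance trend 908 genes. All genes split into 559 higher and 7958 lower in the primed comparison as deposited and 5288 and 4648 after quantile normalization. With the replicate number as a term (replicate block) the counts were 1120, 7622 and 5133 genes, with 1, 7 and 4 subunit genes. With a pseudocount of 0.1 the relative level of Ino80 changed by -0.75 in the primed state, and leaving out a library gave -0.72 to -0.67, against -0.34 to -0.28 in the naive state. All 18 alternatives called Ino80 and Actr5 lower in the primed state, and 17 called Ino80b higher in each state, with the exceptions given above. Signs that turned, with 1 of the values called, came from 3 scalings, whose construction removes the shift of all genes. With median centring the primed change was Actr8 0.19, Ino80d 0.42, Ino80e 0.22, Nfrkb 0.63, Tfpt 0.17, Uchl5 0.59, Mcrs1 0.27, Ruvbl1 0.63, Ruvbl2 0.34, Yy1 0.42, Actb 0.33, Srcap 0.55, Ep400 0.34, Prpf31 0.21, Znhit1 0.15, Dmap1 0.18, Yeats4 0.21, Vps72 0.38, Mrgbp 0.0143 and Kat5 0.094. After quantile normalization the primed change was Actr8 0.0315, Ino80d 0.47, Ino80e 0.025, Nfrkb 0.60, Tfpt 0.0955, Uchl5 0.31, Mcrs1 0.0398, Ruvbl1 0.36, Yy1 0.17, Actb 0.012, Srcap 0.41, Ep400 0.17, Znhit1 0.12 and Vps72 0.15. After loess normalization the primed change was Actr8 0.0019, Ino80d 0.46, Nfrkb 0.57, Tfpt 0.0628, Uchl5 0.25, Mcrs1 0.0079, Ruvbl1 0.30, Yy1 0.12, Srcap 0.37, Ep400 0.14, Znhit1 0.0852 and Vps72 0.12. With median centring the difference between states was Actr8 0.21, Ino80b 0.56, Ino80e 0.19, Nfrkb 0.33, Mcrs1 0.17, Ep400 0.16 and Dmap1 0.0707. After quantile normalization the difference between states was Actr8 0.0412, Ino80b 0.47, Ino80d 0.0331 and Nfrkb 0.30. After loess normalization the difference between states was Actr8 0.0311, Ino80b 0.43, Ino80d 0.0381 and Nfrkb 0.29. Depth is unknown, so what it limits cannot be stated.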
